A study of Mus musculus with 16 samples.

Results

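Penk, the gene of proenkephalin, was followed in sorted bone marrow stromal cells of mice with and without miR-9-1. It is 1 gene of the 20056 symbols in the table, and it was chosen from its levels in the same 4 groups, so its levels and differences are a description and carry no test. The study sorted cells labelled mesenchymal stem cells (MSC) and osteoblasts (OB) from 4 wild-type mice and 4 miR-9-1-deficient mice made by CRISPR/Cas9 editing, and sequenced polyadenylated RNA. Each of the 4 groups held 4 libraries, 16 in all: wild-type MSC, deficient MSC, wild-type OB and deficient OB. The labels name no treatment. The sources used here do not give the sort markers, the strain, the age or the deficiency allele. Each library is called by a letter for the number in its name, taken as the mouse. Letters A to D are wild-type and E to H deficient, and each letter has 1 MSC and 1 OB library.

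Proenkephalin is a secreted precursor that is cut at pairs of basic residues into the opioid pentapeptides Met-enkephalin and Leu-enkephalin and longer forms that contain them. The peptides act on delta and mu opioid receptors, which couple to inhibitory G proteins, and peptidases at the cell surface degrade them. Penk is best known in neurons and the adrenal medulla, and it is also expressed by mesenchymal cells, bone-forming cells included, and by regulatory T cells. The gene lies on chromosome 4 at chr4:4133531-4138819 of GRCm38, on the minus strand (ENSMUSG00000045573.9), with 1634 exonic bases. Translation of its transcript of 1449 bases gave a precursor of 268 residues with 6 copies of Met-enkephalin and 1 of Leu-enkephalin. All 7 copies followed a pair of basic residues, and 5 were also followed by one.

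Mir9-1 makes 2 mature miRNAs, which bind target RNAs mainly through the seed, bases 2 to 8 from the 5′ end. Both are shown because this locus is the one the mice are deficient in, and the Penk transcript was searched for their seeds (RefSeq sequences, GRCm38.p6, plus strand, chr3:88215613-88215635 and chr3:88215652-88215673, with the seed in capitals).
miR-9-5p: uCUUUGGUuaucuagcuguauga
miR-9-3p: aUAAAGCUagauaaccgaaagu
The 3′ UTR of Penk, 311 bases with the stop codon, held 0 matches to the 7 seed bases of either miRNA (ACCAAAG for miR-9-5p and AGCTTTA for miR-9-3p, transcript strand only). It also held 0 matches to their 6-base cores (CCAAAG and GCTTTA), and the whole transcript held 0 seed matches and 1 match to the core of miR-9-3p. Of 16890 genes with an annotated 3′ UTR, 14.2% held the miR-9-5p match and 12.1% the miR-9-3p match in their longest one. Among the 1413 UTRs within 25% of its length the shares were 3.11% and 2.76%. The absence of these letters says only that this window does not hold them.

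Reads of the Mir9-1 gene itself were 0 in all 8 MSC libraries, which allows up to 3 reads in each. They reached 16 in wild-type OB libraries, of which 3 of 4 held any, and 1 of 4 deficient OB libraries held 3 reads. Poly(A) libraries at this depth therefore gave no check of the deficiency in MSC libraries.

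Library depth was 10148197 to 14246986 reads in MSC libraries and 15543693 to 18962771 in OB libraries. Levels below are normalized counts, which are reads divided by a size factor for each library. The 5 MSC libraries B, C, D, G and H held Xist RNA (11937 to 14158) with little Ddx3y, a Y-linked gene (29.8 to 78.1). MSC libraries A, E and F held the reverse (Xist 291 to 392, Ddx3y 1848 to 3355). Every OB library held both RNAs (Xist 3720 to 8053, Ddx3y 649 to 1939). The letters separated in the same way, with less Xist (3720 to 4652) and more Ddx3y (1167 to 1939) in OB A, E and F than in the other 5 (6745 to 8053 and 649 to 817). The 8 osteoblast markers, Bglap and Col1a1 among them, were detected in every group but did not favour OB libraries. Their summed level was 635566 to 847003 in wild-type MSC libraries and 97891 to 209403 in wild-type OB libraries, so the 2 cell names are used below as the labels give them.

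Penk was higher in miR-9-1-deficient mice in both sorts. In wild-type MSC libraries A to D its normalized counts were 494, 495, 716 and 648, with a mean of 588 ± 112 (SD, n = 4), from 356 to 530 reads. In deficient MSC libraries E to H they were 4107, 2424, 6772 and 5722, with a mean of 4756 ± 1902 (SD, n = 4), from 1881 to 5181 reads. The lowest deficient library, F, lay 3.39 times above the highest wild-type one, C, and the groups did not overlap. The difference on the log2(normalized count + 1) scale was 2.93 ± 0.28 (SE), and the ratio of the means was 8.09. By size of increase Penk stood at place 36 of 14964 genes fitted, and at place 16 of the 12640 with a mean of 50 or more. Of all genes fitted in this comparison, 12.4% had groups that did not overlap.

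The OB libraries started from a lower Penk level. Wild-type OB libraries A to D held 91.1, 89.7, 85.9 and 49.2 (79.0 ± 19.99, SD, n = 4), from 67 to 138 reads. Deficient OB libraries E to H held 3007, 1141, 2113 and 928 (1797 ± 957, SD, n = 4), from 1235 to 4093 reads. Library D was the low one of its group, and the lowest deficient library, H, was 10.2 times the highest wild-type one. The log2 difference was 4.37 ± 0.36 (SE), the ratio of the means was 22.8, and only 2 of 14229 genes fitted had a larger increase. In this comparison 5.47% of genes had groups that did not overlap.

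**Figure D1:**
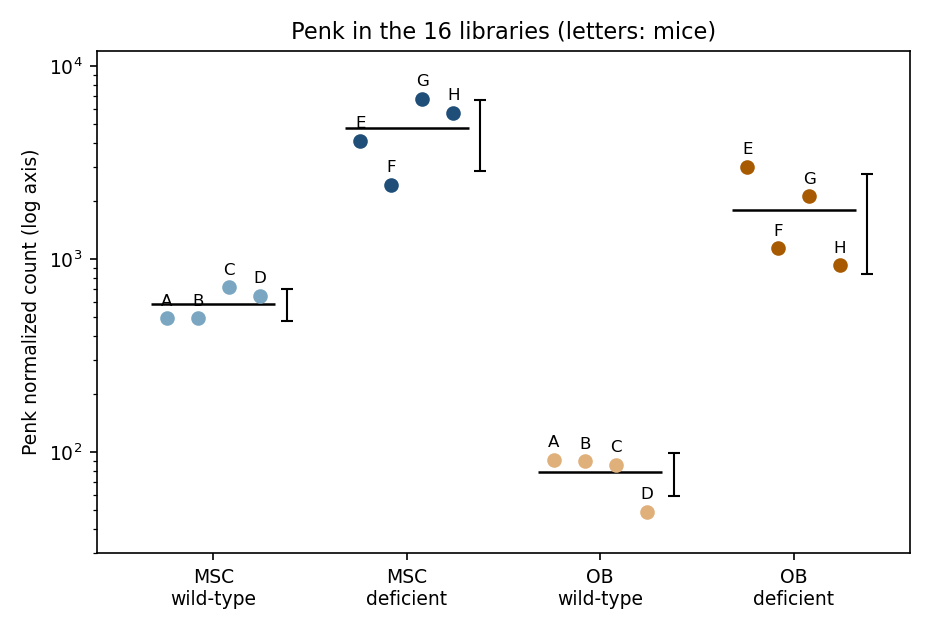
Penk normalized count (log axis) in each library, by group, with mouse letters, the group mean (line) and SD (bar). Wild-type OB libraries lie at 49.2 to 91.1 and wild-type MSC libraries at 494 to 716, below all deficient libraries (928 to 6772).

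The order of the group means was wild-type OB, wild-type MSC, deficient OB and deficient MSC. Wild-type MSC libraries had 7.44 times the mean of wild-type OB libraries, and deficient OB libraries had 3.06 times that of wild-type MSC libraries, with no overlap at either step. The last step, 2.65 times, did overlap: deficient OB library E (3007) lay above deficient MSC library F (2424). On the log2 scale, OB minus MSC was -2.90 ± 0.23 (SE) in wild-type and -1.46 ± 0.41 (SE) in deficient mice. Groups did not overlap for 65.5% of genes between the wild-type sorts and for 55.2% between the deficient sorts, so a separation between MSC and OB libraries was the common case. The genotype difference was larger in OB than in MSC libraries by 1.44 ± 0.50 (SE) log2 units, given as a description.

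Every letter had less Penk in its OB than in its MSC library. OB library levels were 18.4%, 18.1%, 12.003% and 7.59% of the MSC level for A to D. For E to H they were 73.2%, 47.1%, 31.2% and 16.2%. The wild-type shares overlapped the deficient ones only through library pair H, which lay below A and B.

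Per kilobase of exon, Penk ranked among the most abundant transcripts in deficient mice. Its mean level was 360 per kilobase in wild-type MSC libraries, above 85.1% of 12985 genes, and 2911 in deficient MSC libraries, at place 187 of 12886. In OB libraries it was 48.3 in wild-type mice, above 32.03% of 12739 genes, and 1100 in deficient mice, at place 397 of 12669.

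Several marker levels moved with the Penk differences. The 8 MSC stroma markers, Lepr, Cxcl12 and Pdgfra among them, summed to 31830 to 68205 in wild-type and 31957 to 48254 in deficient MSC libraries, so their ranges overlapped between genotypes while Penk did not. They summed to 3840 to 8674 in wild-type OB libraries and 3328 to 38241 in deficient OB libraries, where E and F were high. In bulk RNA, fewer cells of a type and less RNA per cell cannot be told apart. Between genotypes the summed osteoblast markers were lower in deficient mice, where Penk was higher: 173456 to 455987 in deficient MSC libraries against 635566 to 847003 in wild-type ones, and 11698 to 60484 against 97891 to 209403 in OB libraries. Between sorts they went the same way as Penk, and Col1a1 made up 95.4% of the sum in wild-type MSC libraries. Ibsp went against the sum, at 15871 to 28186 in wild-type and 17681 to 47688 in deficient MSC libraries. Alpl, Sp7 and Runx2 overlapped between genotypes in both sorts and Dmp1 in OB libraries, while Bglap, Bglap2 and Col1a1 overlapped in neither sort. Of the 13 marker lists, 3 had lower sums in all deficient than in all wild-type MSC libraries and 2 in OB libraries, and 0 had higher ones. Of single genes fitted, 12.4% in MSC and 5.47% in OB libraries had genotypes that did not overlap, in either direction. Besides osteoblast, the lower lists were chondrocyte markers in both sorts and B lineage markers in MSC libraries. Wild-type first, chondrocyte markers summed to 43514 to 319207 against 7569 to 30399 in MSC and 121066 to 327068 against 21440 to 55830 in OB. B lineage markers summed to 527 to 663 against 182 to 265. Of the chondrocyte markers Col2a1 separated in both sorts (28777 to 272356 against 1663 to 12300 in MSC), while Acan and Sox9 overlapped in both. The mean log2 level of the chondrocyte markers overlapped in MSC libraries (10.02 to 13.24 against 8.42 to 10.48). Skeletal muscle markers reached 1242 and 4666 in deficient MSC libraries G and H, the 2 highest in Penk, against 74.9 to 258 in the other 6 MSC libraries. The 7 T cell markers, from a lineage that includes Penk-expressing regulatory cells, summed to 129 to 266 in deficient and 175 to 633 in wild-type MSC libraries, and to 149 to 280 and 196 to 287 in OB libraries. In deficient MSC libraries the means of Cd3e, Cd3d and Foxp3 were higher and those of Cd3g, Cd4, Cd8a and Il2ra lower. Mean Cd4 was 159 in wild-type and 36.3 in deficient MSC libraries, and mean Foxp3 was 89.4 and 106. No marker of these lists was at 0 throughout a group except Myh4 in wild-type MSC libraries. The part of the osteoblast, chondrocyte, B lineage, T cell, muscle and stroma levels in the Penk differences was not tested.

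Relative to the stroma markers, Penk values did not overlap between genotypes and overlapped between sorts. The stroma markers themselves overlapped between genotypes in both sorts, so this scale describes the same Penk values and is no test of cell content. The log2 level of Penk minus the mean log2 level of the 8 markers was -2.37 ± 0.33 (SD, n = 4) in wild-type MSC libraries and -2.36 ± 0.31 (SD, n = 4) in wild-type OB libraries, and these overlapped. It was 0.61 ± 0.76 (SD, n = 4) in deficient MSC and 1.01 ± 1.22 (SD, n = 4) in deficient OB libraries, which also overlapped. Deficient minus wild-type was 2.98 in MSC and 3.37 in OB libraries on this scale, with no overlap in either sort. Against the 8 osteoblast markers wild-type MSC libraries lay at -2.90 to -2.26 and wild-type OB libraries at -4.98 to -3.77. The deficient sorts overlapped there. Against the fibroblast markers the wild-type sorts overlapped. Deficient MSC libraries lay at 0.88 to 2.56 and deficient OB libraries at 3.17 to 4.64. The difference between sorts thus depended on the list. Genotypes did not overlap in either sort against the stroma, osteoblast, fibroblast and T cell markers. Against the skeletal muscle markers they overlapped in MSC libraries but not in OB libraries. There deficient MSC library H (3.804) lay below all wild-type MSC libraries, and G (5.49) lay below wild-type A (6.53). The separation of genotypes in MSC libraries thus also depended on the list.

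**Figure D2:**
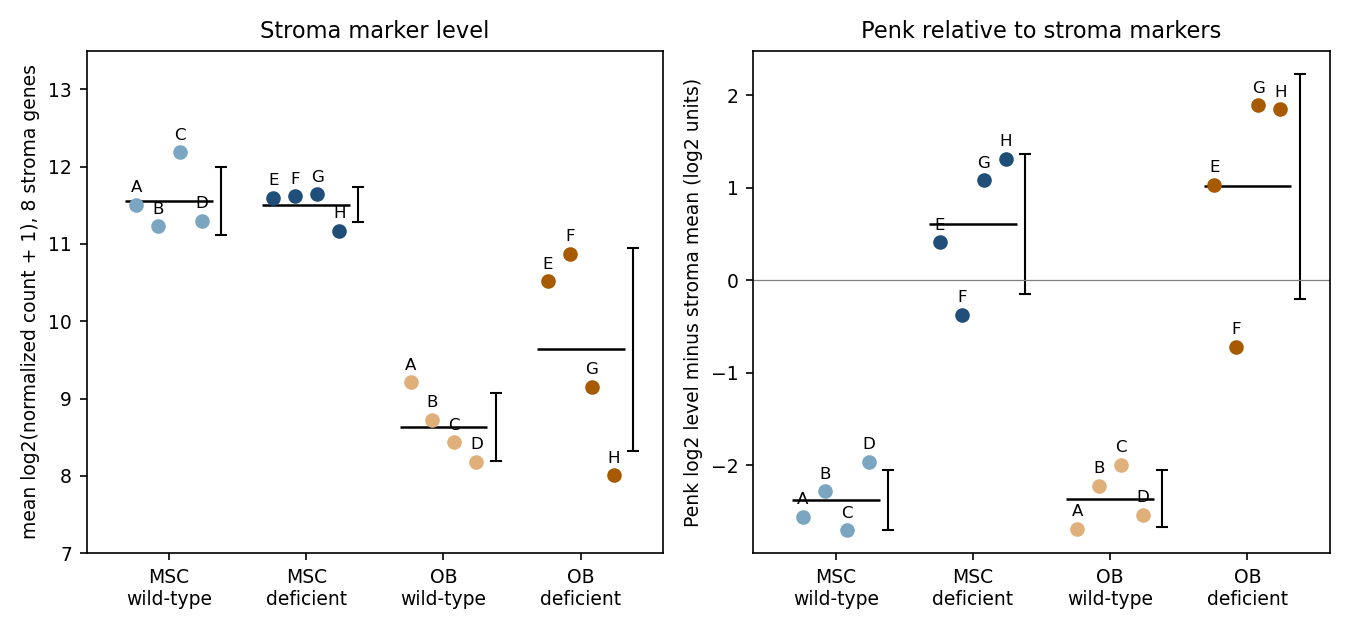
Mean log2 level of the 8 stroma markers (left) and Penk log2 level minus that mean (right) in each library, by group, with mouse letters, the group mean (line) and SD (bar). Wild-type MSC and OB libraries share the same range on the right, and all deficient libraries lie above it.

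The genotype difference was present within both sets of letters separated by Xist and Ddx3y. Among the 3 MSC libraries with Ddx3y above Xist, Penk was 494 in wild-type A and 2424 to 4107 in deficient F and E, a ratio of means of 6.61. Among the other 5 it was 495 to 716 in wild-type and 5722 to 6772 in deficient libraries, a ratio of 10.1. The deficient libraries with Xist lay above those with Ddx3y. Among OB libraries of the same letters, Penk was 91.1 in A and 1141 to 3007 in E and F, a ratio of means of 22.8, and 49.2 to 89.7 in B, C and D and 928 to 2113 in G and H, a ratio of 20.3. With 1 to 3 libraries on each side these are values with no test.

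The other opioid precursors stayed near the detection limit. Pdyn (prodynorphin) held reads in 2 of 16 libraries, at 3.88 and 3.52, and Pnoc (pronociceptin) reached 7.77. Pomc (proopiomelanocortin) lay between 0 and 20.2. None approached the lowest Penk value of 49.2.

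Opioid receptor RNA was equally scarce. Oprm1 (mu receptor) reached 14.2, Oprd1 (delta receptor) 18.8 and Oprl1 (nociceptin receptor) 38.7, with several libraries at 0 for each. Oprd1 was 5.85 to 18.8 in wild-type and 0 to 2.94 in deficient OB libraries. Oprl1 was 0 to 2.59 in wild-type and 0 to 38.7 in deficient MSC libraries. Both were too low to test in those comparisons, and Oprk1 was not among the symbols measured. The non-classical receptors were well expressed. Ogfr, the opioid growth factor receptor that binds Met-enkephalin, was 637 to 869 in wild-type MSC and 1600 to 1777 in wild-type OB libraries, and Ackr3, an atypical chemokine receptor that scavenges opioid peptides, was 1591 to 2940 and 186 to 294. Genotype differences were small beside that of Penk: 0.13 ± 0.16 (SE) for Ogfr and -0.09 ± 0.31 (SE) for Ackr3 in MSC libraries.

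Other genes of the enkephalin system were tested with limma over all genes fitted, with a Benjamini-Hochberg adjusted p under 0.05 as the threshold. The lists held 60 genes besides Penk, of which 58 were in the table: the other precursors, receptors, enzymes that process the precursor, secretory granule proteins, degrading peptidases, receptor coupling proteins and factors that bind the Penk enhancer. In MSC libraries 0 of 49 tested list genes passed between genotypes, against 1.06% of all genes. At an unadjusted p under 0.05 there were 9 of 49 (18.4%), beside 22.8% of all genes. On the recovered reads edgeR called 0 and DESeq2 called 2, Atf3 and Junb, beside 7.99% of all genes by DESeq2. Leaving out deficient MSC library F gave 7 calls by limma (Atf3, Ece1, Fosl2 and Junb higher, Ece2, Pam and Rnpep lower), and 15.3% of all genes passed then. The list median was 0.02, and that of all genes was -0.03. In OB libraries 0 of 45 passed, against 0.0281% of all genes, and edgeR called 0. At an unadjusted p under 0.05 there were 9 of 45, beside 8.95% of all genes. DESeq2 called 1, Gnao1, beside 1.36% of all genes, and limma called it without deficient OB library H. For the difference between the 2 genotype differences 0 of 53 passed, against 0.0129% of all genes, with 4 at an unadjusted p under 0.05, beside 11.5% of all genes.

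No processing enzyme passed between genotypes in either sort in the limma fit of the 2 groups compared, and Rnpep and Pam passed in MSC libraries without library F. Furin, a proprotein convertase of the constitutive pathway, differed by 0.08 ± 0.15 (SE) in MSC and -0.07 ± 0.06 (SE) in OB libraries. Ctsl, whose cathepsin can cut proenkephalin, was 5360 to 7758 in wild-type MSC libraries and 7073 to 20293 in deficient ones, with a difference of 0.56 ± 0.30 (SE) and a limma adjusted p of 0.285. Pcsk1 and Pcsk2, the neuroendocrine convertases, were low, at no more than 58.6 and 92.7 in any library. Granule protein genes differed in direction. In MSC libraries Scg3 was 30.1 to 239 in wild-type and 35.2 to 96.7 in deficient mice, a difference of -0.76 ± 0.62 (SE), and Chga was 9.06 to 25.5 and 0 to 9.15. Scg5 and Vgf are named here after their values were seen: Scg5 was 0 to 15.3 and 5.84 to 54.0, and Vgf was 0 to 13.0 and 4.38 to 55.2. Scg5 and Vgf did not pass in the limma fit of the MSC libraries alone and passed, with Chga lower, in 1 fit of all 16 libraries.

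The peptidases and enhancer-binding factors held reads in every library of both genotypes. Ece1, an endothelin-converting peptidase that also degrades enkephalin, differed by 0.48 ± 0.18 (SE) in MSC libraries, with a limma adjusted p of 0.151. Ece2, named here after its values were seen, differed by -1.37 ± 0.51 (SE), with a limma adjusted p of 0.148. It was 392 to 500 in wild-type and 48.1 to 389 in deficient MSC libraries. Atf3 and Junb, stress-induced factors of the ATF and AP-1 families, differed by 0.51 ± 0.15 (SE) and 0.57 ± 0.18 (SE), with limma adjusted p of 0.100 and 0.113. DESeq2 adjusted p were 0.0129 and 0.000398. The values of Atf3 and Junb did not overlap, nor did those of 12.4% of all genes fitted in MSC libraries. Junb was 24363 to 30181 in wild-type and 39257 to 43769 in deficient MSC libraries. Fos, at 66743 to 97151 in MSC libraries, differed by 0.30 ± 0.24 (SE). Gnao1, an inhibitory G protein subunit, differed by 1.30 ± 0.41 (SE) in OB libraries, from 67.1 to 119 in wild-type to 91.0 to 411 in deficient libraries, with a limma adjusted p of 0.379 and a DESeq2 adjusted p of 0.0108.

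**Figure D3:**
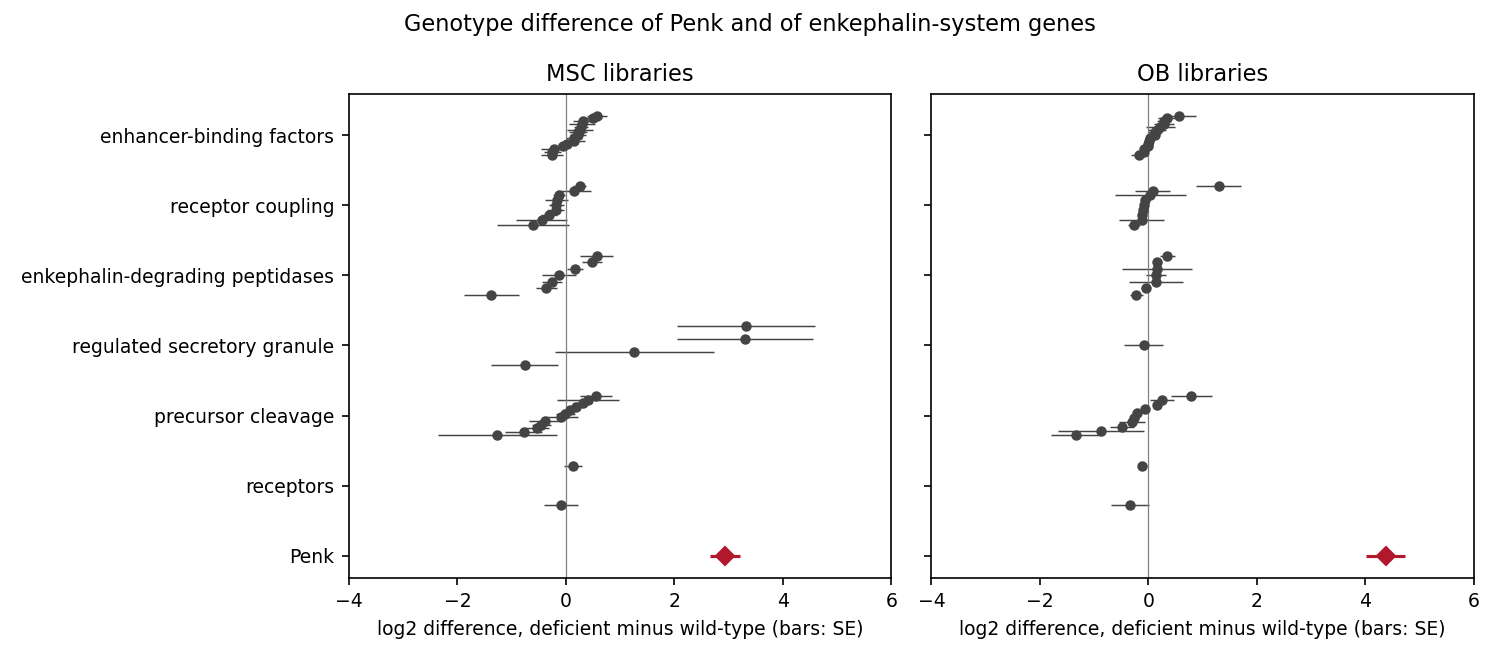
Log2 difference between deficient and wild-type libraries (points, with SE bars) for Penk and the enkephalin-system genes tested, by list, in MSC (left) and OB (right) libraries. Penk lies at 2.93 and 4.37, and none of the other list genes passed in these limma fits.

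Between sorts most list genes moved, as did most genes. In wild-type mice 10 of 49 tested list genes were higher and 29 lower in OB than in MSC libraries, against 69.9% of all genes passing in either direction. The list median was -1.23 and that of all genes 0.01. In deficient mice 9 of 48 were higher and 27 lower, against 59.6% of all genes, with a median of -1.04 beside -0.02. Among the processing enzymes Pam, which amidates peptides, fell by 2.66 ± 0.11 (SE) and Cpe, the carboxypeptidase that trims basic residues, fell by 1.60 ± 0.28 (SE) in wild-type mice, while Furin rose by 0.51 ± 0.08 (SE). Of the peptidases, Anpep (aminopeptidase N) fell by 2.99 ± 0.11 (SE) and Dpp3 rose by 0.47 ± 0.08 (SE). Fos fell by 2.58 ± 0.10 (SE), and Nr3c1, the glucocorticoid receptor, fell by 1.21 ± 0.06 (SE). Ogfr rose by 1.19 ± 0.12 (SE) and Ackr3 fell by 3.27 ± 0.21 (SE) in wild-type mice, and both passed in the same direction in deficient mice. These changes accompany the lower stroma marker levels of the OB libraries given above, and the part of those in the differences was not tested.

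Genes around Penk on chromosome 4 had smaller genotype differences than Penk. Of the 4 nearest protein-coding genes in the table on each side, Mos and Sdr16c5 were too low to test. The other 6 gave 0 limma calls between genotypes in either sort, beside 1.06% (MSC) and 0.0281% (OB) of all genes. At an unadjusted p under 0.05 there were 2 of 6 in each sort, beside 22.8% (MSC) and 8.95% (OB) of all genes. Plag1, a zinc finger factor 195 kb away, was 61.9 ± 15.8 (SD, n = 4) in wild-type and 214 ± 116 (SD, n = 4) in deficient MSC libraries, a difference of 1.63 ± 0.42 (SE) with a limma adjusted p of 0.0769. Its adjusted p was 0.00167 with DESeq2 and 0.00903 with limma without deficient MSC library F, where Impad1 also passed (0.0284). In OB libraries Plag1 differed by 0.87 ± 0.35 (SE) and Ubxn2b by 0.62 ± 0.20 (SE), with limma adjusted p of 0.500 and 0.379. Over the 16 libraries the correlation of Plag1 with Penk was 0.78. Chchd7 differed by 0.53 ± 0.25 (SE), Impad1 by 0.43 ± 0.17 (SE), Ubxn2b by 0.22 ± 0.25 (SE), Fam110b by 0.13 ± 0.29 (SE) and Sdcbp by -0.07 ± 0.11 (SE) in MSC libraries. Between sorts 1 of the 6 was higher and 3 lower in OB libraries in each genotype. Of all genes 69.9% passed between sorts in wild-type and 59.6% in deficient mice.

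The genes whose level was most like that of Penk were found by the Pearson correlation of log2(normalized count + 1) over the 16 libraries among 12578 genes with a mean of 50 or more. This is a description: the libraries share genotype, sort and mouse letter, so a high value carries no test. The 10 most alike were Fmo1 (r = 0.94), Klf15 (0.93), Apod (0.92), Fmo2 (0.91), Galnt15 (0.91), 4833403I15Rik (0.89), Gprin3 (0.89), Zim1 (0.88), Slc10a6 (0.88) and Sult1a1 (0.88). The 99th percentile of all genes compared was 0.78. Fmo1 and Fmo2 encode flavin-containing monooxygenases and lie beside each other on chromosome 1, Klf15 is a transcription factor known to be induced by glucocorticoid, Apod is a secreted lipocalin, and Slc10a6 is a carrier of sulfated steroids.

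Fmo1 had the closest course. Its normalized counts were 466, 482, 756 and 428 in wild-type MSC libraries A to D and 1878, 745, 1405 and 2199 in deficient E to H. In OB libraries they were 46.4, 38.4, 35.4 and 20.6 in A to D and 499, 386, 469 and 283 in E to H. Like Penk, Fmo1 was lowest in wild-type OB library D, and unlike Penk its deficient MSC range met the wild-type one, with F at 745 below C at 756. Apod was 65492, 14909, 31210 and 66546 in deficient MSC libraries E to H against 4307 to 13360 in wild-type ones, so that F lay just above the wild-type range.

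Of these 10 genes, 9 had deficient MSC libraries wholly above the wild-type ones and 10 did so in OB libraries, which follows from how they were chosen. Within the 8 MSC libraries their correlations with Penk were 0.85 to 0.94, and 5 of the 10 lay above the 99th percentile of all genes (0.91). Within the 8 OB libraries they were 0.87 to 0.99, and all 10 lay above it (0.87). Both sets hold both genotypes and were part of the choice, so these places carry no test. Within the 8 wild-type libraries of both sorts the correlations were 0.63 to 0.99, and 2 of the 10 lay above the 99th percentile (0.99). Within the 8 deficient libraries they were 0.84 to 0.93, and 1 of the 10 lay above it (0.91). After each group mean was subtracted the correlations were 0.40 to 0.76, and 3 of the 10 lay above the 99th percentile of that measure (0.69). Without the 2 libraries farthest from the Penk median, wild-type OB D and C, they were 0.82 to 0.93. The correlations were thus lower within groups than across them. By Spearman rank correlation only 4 of the 20 most alike genes were shared, and Per2, a clock gene, stood first.

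The most opposite genes were Car12 (r = -0.90), Lace1 (-0.86), Naa60 (-0.85), Mfsd7c (-0.84) and Pgam1 (-0.83). Car12, a membrane carbonic anhydrase, was 91.8 to 242 in wild-type and 8.22 to 41.2 in deficient MSC libraries, and 213 to 776 and 49.96 to 102 in OB libraries. Pgam1, a glycolytic enzyme, was 189 to 261 and 121 to 142 in MSC libraries.

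**Figure D4:**
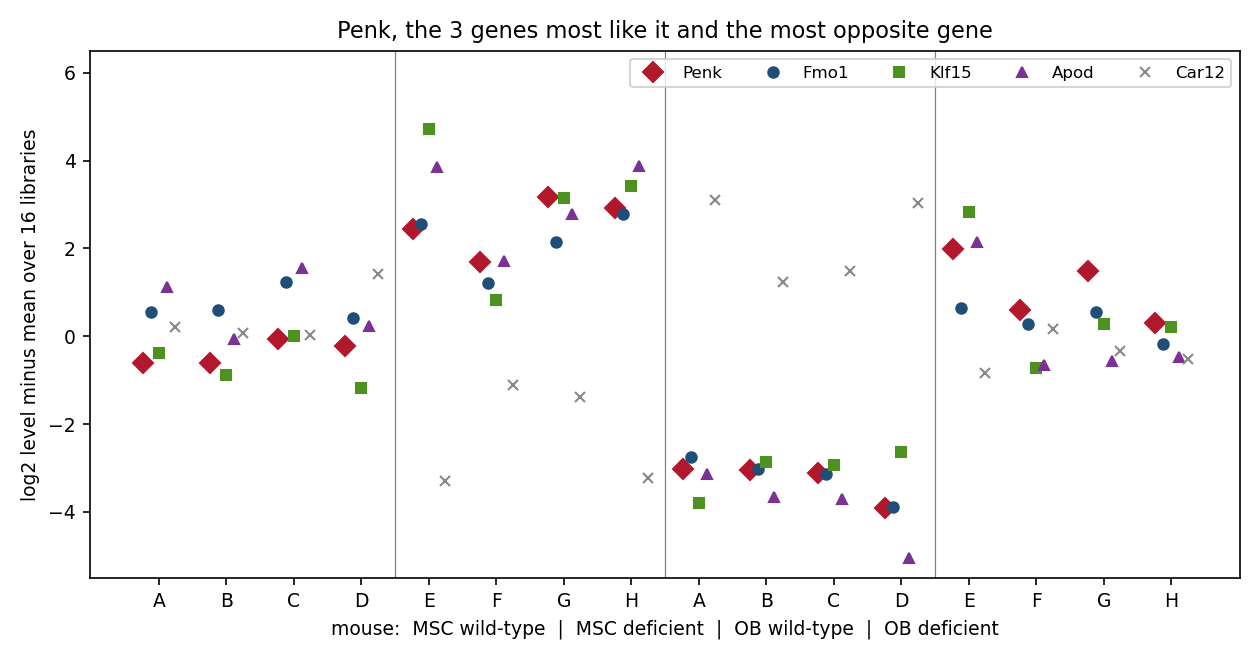
Log2 level minus the mean over the 16 libraries for Penk, for Fmo1, Klf15 and Apod, which were most like it, and for Car12, the most opposite gene, by library. Penk and Fmo1 almost coincide in wild-type OB libraries, while Klf15 is highest in library E of each deficient group.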

How the data were processed

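Polyadenylated RNA of 16 libraries was measured. The authors deposited a table of normalized counts, a signal obtained per the submitters' processing notes with DESeq2 1.24.0 on mm10; the sources used here do not give the aligner, counter or annotation. Every deposited value was a whole multiple of 1 read's worth in its library (100% within 0.01), so reads and size factors were recovered, and a count test (edgeR) on these reads was run as an alternative: it called 147 genes between MSC genotypes and 4 between OB genotypes. Depth was 10148197 to 14246986 reads in MSC and 15543693 to 18962771 in OB libraries; intervals and floors cover counting error only, and the floor is 3 reads.

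Differences and SEs came from limma 3.58.1 (R 4.3.3) with trend on log2(normalized count + 1), keeping genes that reached 10 in 4 libraries of the fit, and using only the groups compared (all 16 for the difference of differences). A log2 difference on this scale understates the change of low genes. Calls were adjusted p under 0.05 by Benjamini-Hochberg over all genes fitted. The code was tested on simulated data. Alternatives were edgeR 4.0.16, DESeq2 1.42.0, array weights, quantile normalization, pseudocount 5, a minimum of 50 or none, 1 fit of all libraries and a replicate block. Each library was also left out, as were deficient MSC libraries G and H together and deficient OB libraries E and F together. Replicate pairs of a group differed beyond counting noise in all 24 cases (chi-square per degree of freedom 10.3 or more). The design text gives 4 mice per genotype, and only the number in a library's name ties it to a mouse. MSC and OB libraries share such a number, taken as the mouse; their deviations from the group means correlated at 0.02 to 0.28 over 15556 genes.

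Named genes were Penk, all precursors and receptors of the lists, the list members that pass (up to 3 per direction) and the 2 highest of each list, the 10 most and 5 least alike genes, and 8 neighbours. Members and lists were chosen with earlier results of these data known. Symbols were matched to GENCODE M21 (19040 of 20056).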

Additional observations from a re-analysis of the deposited data

Results flagged for a closer look

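A library was singled out where its gap to the nearest of the other 3 in its group, as a share of the group's range, passed Dixon's 95% critical value. This met 15 of 216 groups looked at (6.94%), and chance gives about 1 in 20. Penk itself was low in wild-type OB library D, at 49.2 against 85.9 to 91.1. Deficient OB library E was high for 6 of the 10 genes most like Penk: Klf15 at 788 (others 66.4 to 135), Apod at 19998 (2898 to 3266), Fmo2 at 1805 (124 to 227), 4833403I15Rik at 194 (19.0 to 41.3), Zim1 at 287 (132 to 158) and Slc10a6 at 418 (56.0 to 98.5). Library E also held the most Penk of its group (3007), and these genes were chosen for following Penk. Only named genes were looked at, so no share over all genes stands beside this count.

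Other single high libraries were deficient MSC E for Furin (3821) and Sdcbp (3194), deficient OB F for Ace (219), wild-type MSC B for Nfkb1 (2958), wild-type MSC C for Jund (17312) and Fmo1 (756), and wild-type MSC D for Chga (25.6) and Car12 (242).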

How the results depend on the processing

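The Penk differences kept their sign under every alternative run: 2.44 to 3.25 between MSC genotypes, 4.07 to 4.64 between OB genotypes, -2.98 to -2.69 and -1.76 to -0.97 for OB minus MSC in wild-type and deficient mice, and 1.14 to 1.93 for the difference of differences. Leaving out 1 library alone gave, in the same order, 2.73 to 3.22, 4.07 to 4.64, -2.98 to -2.69, -1.76 to -1.19 and 1.14 to 1.71. The number of enkephalin-system genes passing between MSC genotypes, 0, became 4 with array weights (11.5% of all genes passing), 2 with DESeq2 (7.99%) and 6 in 1 fit of all 16 libraries (14.4%), and 0 to 7 when 1 library was left out. Between OB genotypes it became 1 with DESeq2 (1.36%) and 0 to 1 when 1 library was left out (1 without deficient OB library H, 0.765%). The cause was not tested. Quantile normalization moved the median of all genes in OB minus MSC to 0.18 (wild-type) and 0.11 (deficient). It reversed Gnai2 in wild-type mice (0.041) and Fosb in both (0.18 and 0.40), none passing. With the replicate block, 38 of 49 list genes passed between sorts in wild-type mice, beside 10216 of all 14696 genes. In deficient mice 36 of 48 passed, beside 8978 of 14692. For the difference of differences 0 of 53 passed, beside 3 of 15556. Of the 20 genes most like Penk, 4 were shared by Spearman and 13 to 18 when 1 library was left out (13 without deficient OB library H).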
